A study of Homo sapiens with 16 samples.

Results

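The replication-dependent histone genes of chromosome 6 were examined in 16 RNA-Seq libraries of the triple-negative breast cancer lines MDA-MB-231 (8 libraries) and MDA-MB-436 (8 libraries). Members were the protein-coding histone genes between 26 and 28 Mb of chromosome 6 (GRCh37) whose older symbols begin with HIST1H. The annotation lists 50 such genes, and 22 of them have their identifier among the 57820 gene identifiers of the count files. The other 28 are not analysed here. The 22 comprise 6 genes for H1, 4 for H2A, 6 for H2B, 2 for H3 and 4 for H4, and 21 passed the filter on low counts in low serum and 20 in standard serum.

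Both mesenchymal lines carried the stably transfected 7TGP reporter, in which 7 TCF sites drive eGFP as a readout of Wnt activity, and were selected with puromycin. FACS sorting on eGFP split each line into a 7TGP-NEG and a 7TGP-POS subline, which makes 4 groups, and POS and NEG (Wnt-positive and Wnt-negative) are here sorted populations of 1 transfected line each. Each was sequenced as 2 replicates after 3 days in 0.5% fetal bovine serum (low serum) and as 2 replicates after 6 days in 10% serum (standard serum). The study's methods give rRNA depletion for the low serum libraries and poly(A) selection for the standard serum libraries, whereas the labels name 1 poly(A) kit for all 16. Serum, days in culture and library preparation cannot be told apart, and every test was made within 1 serum file. The study's methods also name a different culture medium for each line, so cell line and medium cannot be told apart. The methods call the replicates biological duplicates, but nothing says that they were separate cultures, so p-values measure only the spread between these libraries, which may be technical.

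Replication-dependent histone genes supply the bulk of the core histones H2A, H2B, H3 and H4, and of the linker histone H1, while DNA is copied. Their mRNAs normally carry no poly(A) tail and end in a short stem-loop bound by SLBP, which directs processing, translation and decay of the message at the end of S phase. Some of the genes also give polyadenylated transcripts when a signal beyond the stem-loop is used. A poly(A)-selected library therefore samples another pool of histone RNA than an rRNA-depleted one. In bulk RNA, fewer cells with a transcript and less transcript per cell cannot be told apart.

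Total counts on genes lay between 27918418 and 32667756 per library in low serum and between 31827130 and 46044073 in standard serum. The mesenchymal marker VIM stood at 369 TPM (transcript level per length, scaled to the library) or more in every library, and the epithelial cadherin gene CDH1 at 0.150 TPM or less. The keratin gene KRT8 was at 184 TPM or more in both lines, and the mesenchymal marker CDH2 did not exceed 0.660 TPM in MDA-MB-231. The log2 ratio of the MDA-MB-436 7TGP-POS replicates in standard serum varied with gene GC content (Pearson's r = -0.634 across 12322 genes, which are not independent replicates), against -0.14 to 0.264 in the other groups. The members had a median GC content of 55.9%, and the genes tested in low serum 50.05%.

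The stem-loop was searched on the sense strand as a 16-base pattern with 3 free positions, whose forms are given below, within 100 bases after the stop codon in GRCh37. It was found in all 22 members of the count files, in 46 of the 50 annotated members and in 65 of 20047 protein-coding genes (0.324%). The stretches below are printed as DNA in the sense direction with the 16-base motif in capitals. They are shown for the members with the highest levels in the poly(A) libraries (H2BC12, H2AC6, H1-2, H2BC5), for members nearly undetected in MDA-MB-231 (H1-3, H1-5, H3C4) and for the other forms of the motif (HIST1H4B, H2AC11).
H2BC12: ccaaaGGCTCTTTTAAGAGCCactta
H2AC6: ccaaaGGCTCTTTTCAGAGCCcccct
H1-2: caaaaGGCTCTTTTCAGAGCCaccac
H2BC5: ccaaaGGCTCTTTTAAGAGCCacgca
H1-3: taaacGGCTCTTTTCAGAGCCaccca
H1-5: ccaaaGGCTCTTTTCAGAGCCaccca
H3C4: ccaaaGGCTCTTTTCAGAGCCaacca
HIST1H4B: ccaatGGCCCTTTTCAGGGCCgccca
H2AC11: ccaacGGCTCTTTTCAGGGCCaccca

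The motifs lie at chr6:27114145-27114160 (minus strand) for H2BC12, chr6:26124897-26124912 (plus) for H2AC6, chr6:26055972-26055987 (minus) for H1-2 and chr6:26158815-26158830 (plus) for H2BC5. Those of H1-3, H1-5 and H3C4 lie on the minus strand at chr6:26234445-26234460, chr6:27834575-27834590 and chr6:26197017-26197032. Those of HIST1H4B and H2AC11 lie at chr6:26027129-26027144 (minus) and chr6:27101294-27101309 (plus). The form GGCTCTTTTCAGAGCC was found in 11 of the 22 members, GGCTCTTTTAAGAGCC in 6, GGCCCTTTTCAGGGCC in the 4 H4 genes and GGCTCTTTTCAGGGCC in H2AC11. The poly(A) signal AATAAA occurred in the same window in 3 of the 22 members, against 8.58% of protein-coding genes. Its first base was base 56 after the stop codon in H1-2 and base 65 in H2BC5, beyond the stem-loop in both, and base 16 in H4C11. It was not found in this window in H2BC12 or H2AC6, which had the highest mean levels in the poly(A) libraries.

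The members were abundant in the rRNA-depleted low serum libraries and scarcer in the poly(A)-selected standard serum libraries. Their summed level ranged from 6239.7 to 9667 TPM over the 8 low serum libraries and from 398 to 1158 TPM over the 8 standard serum libraries. They held 0.199% to 0.270% of protein-coding counts in low serum and 0.0151% to 0.0314% in standard serum. The files were normalized separately and their preparation differed, so these levels stand side by side without a test.

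The order of the levels also differed between the files. In low serum the linker histone genes H1-2 and H1-4 led with means of 1217 and 1216 TPM over the 8 libraries, followed by the H4 genes H4C3 (757 TPM) and HIST1H4B (737 TPM). Over both lines H1-2 ranged from 782 to 1459.8 TPM and H1-4 from 729 to 1665 TPM. H4C3 ranged from 575 to 1131 TPM and HIST1H4B from 454 to 961 TPM. The order within these pairs differed by line. H1-4 stood above H1-2, and HIST1H4B above H4C3, in every MDA-MB-231 library. In every MDA-MB-436 library H1-4 stood below H1-2, and HIST1H4B below H4C3. The order was not tested. In standard serum H2BC12 (248 TPM), H2AC6 (236 TPM), H1-2 (141 TPM) and H2BC5 (77.2 TPM) led, with overlapping ranges, and the fifth, H2BC4, had a mean of 8.60 TPM. These 4 members held 95.1% to 96.6% of the summed member TPM in each standard serum library, against 23.7% to 36.4% in low serum. H1-4, near the top in low serum, ranged from 0.840 to 5.02 TPM in standard serum, and H4C3 from 0.270 to 2.29 TPM.

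**Figure D1:**
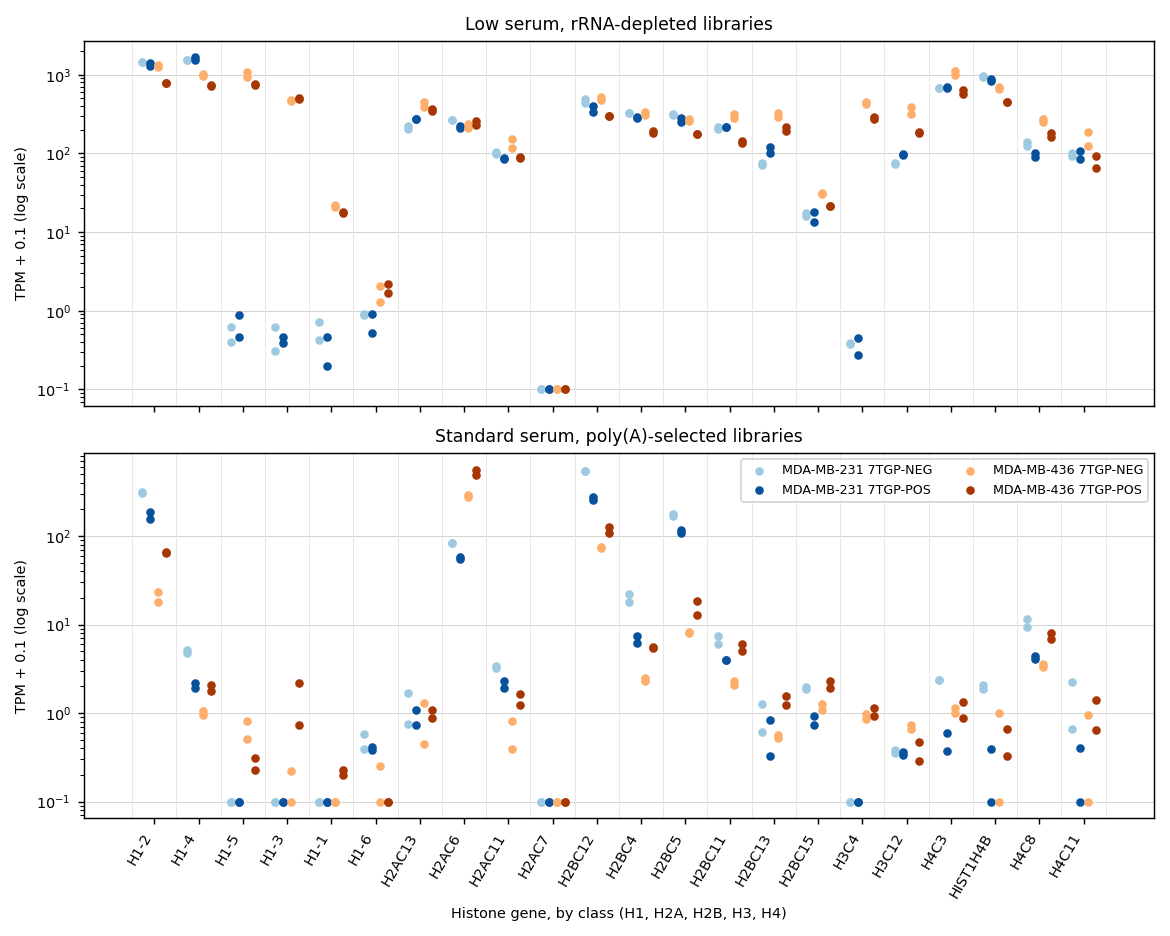
TPM plus 0.1 on a log axis for each of the 22 histone genes, ordered by class, in the 8 low serum libraries (top) and the 8 standard serum libraries (bottom), with 1 point per library coloured by line and reporter state. In standard serum H1-2, H2AC6, H2BC12 and H2BC5 lead the other members of their class, and in low serum H1-5, H1-3, H1-1 and H3C4 lie below 1 TPM in MDA-MB-231.

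Gene models, over which TPM divides the counts, differed in length. The length implied by the deposited counts and TPM was 729 bases for H1-2 and 782 for H1-4, but 1661 for H2AC6, 2229 for H2AC11 and 4246 for H2BC15. The coding sequence of 18 of the 22 members held no 100-base window found in another histone gene. Such windows made up all of H4C11, 80.1% of H2AC13, 27.6% of H2BC12 and 1.79% of H2BC15, and the values of the first 3 are uncertain where reads could be split between copies. H2AC7 was listed at 0 in all 16 libraries.

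In low serum, the MDA-MB-231 sublines differed in few of these genes. A member counted as called at an adjusted p under 0.05 in edgeR's quasi-likelihood test over all protein-coding genes tested, and fold changes are POS over NEG on the log2 scale with their standard error. Of 21 members, 3 were called higher in POS and 0 lower, against 19% higher and 19.9% lower among all 16069 genes tested. In all, 4 members had an unadjusted p under 0.05, and the number called lower was 0 with DESeq2 and 4 with limma on TPM. With a fold limit added (1 or more on the log2 scale, in either direction), 0 members were called higher and 0 lower in edgeR, against 3.50% and 2.40% of all genes tested. The median log2 fold change of the members was 0.07, against -0.01 for all genes. Both POS libraries stood above both NEG libraries for 9 members and below for 4. Among all genes tested, 65.7% had no overlap in either direction.

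The called members were an H2B, an H2A and a linker histone gene. H2BC13 measured 13.1 and 13.9 CPM (counts scaled to the library's total) in NEG and 23.6 and 22.3 CPM in POS. Its log2 fold change was 0.77 ± 0.17 (adjusted p = 0.0124). H2AC13, its divergent neighbour, measured 47.5 and 44.2 CPM in NEG and 62.7 and 70.5 CPM in POS (0.55 ± 0.14, adjusted p = 0.0296). Both POS libraries stood above both NEG libraries for each of these genes. H1-4 measured 493 and 485 CPM in NEG and 572 and 592 CPM in POS, also without overlap (0.26 ± 0.076, adjusted p = 0.0171). The calls rested on every library of the line: 0 remained without NEG replicate 1, 1 without NEG replicate 2, 1 without POS replicate 1 and 0 without POS replicate 2. The H1-4 call was also lost with a correction for GC content and with limma on TPM.

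The other abundant members were not called in MDA-MB-231. H1-2 measured 434 and 429.7 CPM in NEG and 445 and 459.8 CPM in POS (0.08 ± 0.088, adjusted p = 0.557). The H2B gene H2BC4 measured 112 and 109 CPM against 107 and 114 CPM, with overlapping groups. The H2A gene H2AC6 measured 181 and 176 CPM in NEG and 161 and 171 CPM in POS (-0.10 ± 0.051, adjusted p = 0.141). The H3 gene H3C12 had POS above NEG, at 25.8 and 24.7 CPM and 35.7 and 39.0 CPM, without passing the test (0.57 ± 0.19, adjusted p = 0.0829). H4C3 measured 114 and 112 CPM in NEG and 123 and 141 CPM in POS and HIST1H4B 136 and 138 CPM and 139.8 and 146 CPM, and neither passed the test. H2BC12 measured 166 and 146 CPM in NEG and 143 and 135 CPM in POS (-0.16 ± 0.11, adjusted p = 0.325).

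In MDA-MB-436 at low serum, members of the H1, H2B, H3 and H4 classes were lower in POS, and an H2A and a linker gene were higher on counts. Of 21 members, 9 were called lower and 2 higher, against 25.3% lower and 26.6% higher among all genes tested. At that fold limit 0 members were higher and 0 lower in edgeR, against 6.52% and 4.03% of all genes, and 14 members had an unadjusted p under 0.05. The median log2 fold change of the members was -0.34, against 0.01 for all genes. For 14 members both POS libraries stood below both NEG libraries and for 2 above, and 74.0% of all genes tested had no overlap in either direction.

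Among the H2B genes, H2BC4 had the smallest adjusted p. It measured 81.9 and 95.1 CPM in NEG and 61.9 and 60.2 CPM in POS, and its log2 fold change was -0.55 ± 0.069 (adjusted p = 6.33e-07). H2BC5 measured 72.5 and 84.3 CPM in NEG and 65.2 and 59.2 CPM in POS (-0.34 ± 0.071, adjusted p = 0.000361). H2BC11 went from 97.0 and 120.2 CPM to 65.8 and 55.8 CPM, the largest change among the called members (-0.85 ± 0.17, adjusted p = 0.0126). H2BC12 went from 124 and 147 CPM to 102 and 93.2 CPM (-0.48 ± 0.11) and H2BC15 from 42.0 and 44.5 CPM to 38.1 and 34.1 CPM (-0.27 ± 0.077). In these 5 genes POS and NEG did not overlap. The H2BC12 call was lost without either MDA-MB-231 POS replicate and the H2BC15 call without MDA-MB-436 NEG replicate 2. The H2BC11 call was lost in a fit of the 4 MDA-MB-436 libraries alone.

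Linker, H3 and H4 genes were also called lower. H1-2 measured 286 and 335 CPM in NEG and 240.2 and 215 CPM in POS (-0.46 ± 0.089, adjusted p = 0.00201). HIST1H4B measured 75.0 and 84.6 CPM in NEG and 67.0 and 61.1 CPM in POS (-0.33 ± 0.066, adjusted p = 0.000161). The H3 gene H3C4 went from 115 and 132 CPM to 105 and 89.8 CPM (-0.35 ± 0.087) and H3C12 from 83.1 and 111 CPM to 63.6 and 59.2 CPM (-0.67 ± 0.17). The H3C12 call was lost without any 1 of the 4 POS libraries of either line, and those of H1-2, H3C4 and H3C12 in a fit of the 4 MDA-MB-436 libraries alone. H4C3 did not pass the test, although its groups of 129.7 and 161 CPM and 109 and 89.6 CPM did not overlap (-0.56 ± 0.18, adjusted p = 0.0601). H1-4 measured 236 and 276 CPM and 237 and 217 CPM (-0.18 ± 0.078, adjusted p = 0.0678) and H2AC13 65.9 and 83.0 CPM and 75.5 and 72.2 CPM (-0.02 ± 0.14, adjusted p = 0.927), and neither was called.

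H2AC6 and H1-3 were called higher in POS on counts, and neither was called on TPM. H2AC6 measured 123 and 122 CPM in NEG and 161 and 163 CPM in POS, and its log2 fold change was 0.39 ± 0.051 (adjusted p = 2.48e-08). H1-3 measured 113 and 127 CPM in NEG and 161 and 142 CPM in POS (0.32 ± 0.073, adjusted p = 0.00122), and its call was lost without MDA-MB-436 POS replicate 1 and in a fit of the 4 libraries of the line alone. The groups did not overlap in CPM for either gene. In TPM, H2AC6 measured 234 and 213 in NEG and 233 and 261 in POS, with overlapping groups, and H1-3 measured 461 and 477 in NEG and 499 and 486 in POS. With limma on log2(TPM + 1) the log2 fold change was 0.14 for H2AC6 (adjusted p = 0.213, range over all alternatives 1.88e-14 to 0.213). For H1-3 it was 0.07 (adjusted p = 0.681, range 3.94e-09 to 0.681). Without MDA-MB-436 NEG replicate 1, the number of members called lower was 17 in place of 9.

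The change differed between the lines for 10 of 21 members in low serum, tested as MDA-MB-231 minus MDA-MB-436. This share was near the 45.7% of all genes tested. In 9 of them the change in MDA-MB-231 lay above that in MDA-MB-436, with H2BC4 (0.56 ± 0.095, adjusted p = 4.77e-05) and HIST1H4B (0.40 ± 0.090, adjusted p = 0.000754) first by adjusted p. The exception was H2AC6 (-0.48 ± 0.072, adjusted p = 4.06e-07). No member was called within both lines. The count was 6 without MDA-MB-231 POS replicate 1 and 5 without MDA-MB-231 POS replicate 2.

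**Figure D2:**
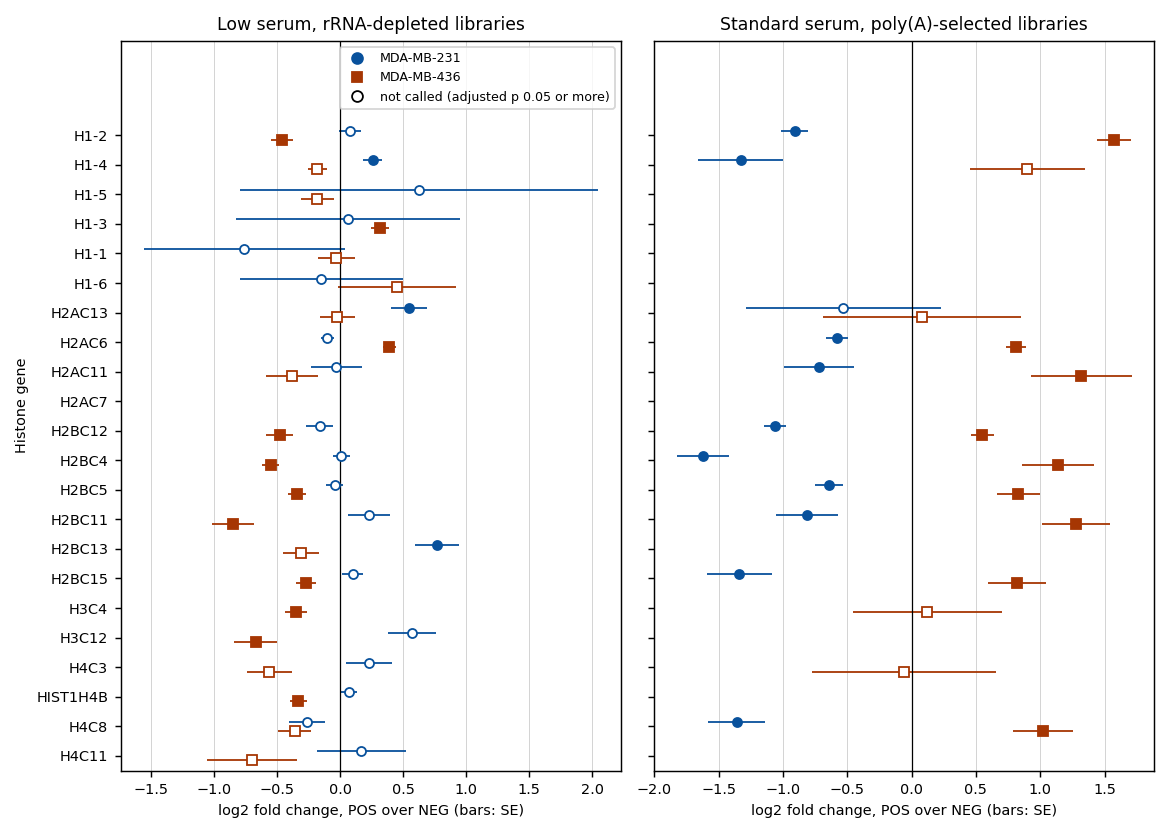
Log2 fold change of POS over NEG with its standard error for each histone gene in MDA-MB-231 (circles) and MDA-MB-436 (squares), in low serum (left) and standard serum (right). Filled symbols passed an adjusted p of 0.05, and comparisons with a group at 3 counts or fewer in each library are not drawn. In standard serum the filled MDA-MB-231 symbols lie between -1.62 and -0.58 and the filled MDA-MB-436 symbols between 0.55 and 1.57.

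In standard serum, where the libraries captured polyadenylated RNA, the leading members and several weaker ones were lower in MDA-MB-231 7TGP-POS than in 7TGP-NEG. Of 20 members tested, 12 were called lower and 0 higher, against 16.2% lower and 16.8% higher among all 15414 genes tested. In all, 13 members had an unadjusted p under 0.05, and the number called higher was 0 with DESeq2 and 0 with limma on TPM. The number called lower was 7 with DESeq2, which gave no adjusted p for 2 of the 12. With the fold limit, 7 were lower and 0 higher, against 2.72% and 4.96% of all genes. The median log2 fold change was -0.83, or -0.91 over 15 members when a group at 3 counts or fewer in each library was set to 3 counts, against 0.00 for all genes. Both POS libraries stood below both NEG libraries for 13 members and above for 0. Among all genes tested, 66.9% had no overlap in either direction.

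H2BC12 measured 116 and 119 CPM in NEG and 59.5 and 57.0 CPM in POS. Its log2 fold change was -1.06 ± 0.085 (adjusted p = 2.04e-08). H1-2 measured 59.1 and 62.0 CPM in NEG and 35.9 and 30.9 CPM in POS (-0.91 ± 0.11, adjusted p = 4.91e-06). Both fell without overlap between the groups. H2BC5 went from 41.2 and 41.0 CPM to 28.2 and 26.5 CPM (-0.64 ± 0.11, adjusted p = 0.000158) and H2AC6 from 35.9 and 37.2 CPM to 24.5 and 26.3 CPM (-0.58 ± 0.083, adjusted p = 2.36e-05), again without overlap.

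Members with lower levels were called in the same direction. H2BC4 had the largest change of the called members above the floor, from 3.95 and 4.96 CPM to 1.63 and 1.37 CPM (-1.62 ± 0.20, adjusted p = 5.81e-06). The H4 gene H4C8 went from 3.09 and 2.58 CPM to 1.10 and 1.199 CPM (-1.36 ± 0.22) and H1-4 from 0.966 and 1.07 CPM to 0.385 and 0.446 CPM (-1.33 ± 0.33). In each of these genes both POS libraries stood below both NEG libraries. H2AC11 measured 1.93 and 1.92 CPM in NEG and 1.30 and 1.12 CPM in POS. H2BC15, H2BC11 and H2AC11 were called at -1.34 ± 0.25, -0.81 ± 0.24 and -0.72 ± 0.27. The H2AC11 call (adjusted p = 0.0484) was lost without any 1 of the 4 MDA-MB-231 libraries and with replicates as a block, and the H2BC11 call without NEG replicate 2 or either POS replicate. DESeq2 did not call H1-4, H2BC11 or H2AC11.

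The H4 genes HIST1H4B and H4C3 were called on few reads. HIST1H4B had 6 and 6 counts in NEG and 0 and 1 in POS. The ratio of NEG to POS per total count was 12.3 (95% interval 1.82 to 525, exact, counting error only), and the call had adjusted p = 0.0387. H4C3 had 9 and 8 counts in NEG and 1 and 2 in POS, with adjusted p = 0.0179 and a ratio of 5.79 (95% interval 1.68 to 30.9, exact, counting error only). Both calls were lost without any 1 of the 4 MDA-MB-231 libraries, and that of HIST1H4B also with replicates as a block. HIST1H4B reached the filter of 10 counts only through the MDA-MB-231 NEG libraries, where it was high. It is counted among the members called lower, but its call adds no support for a change.

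In MDA-MB-436 at standard serum the called members were higher in POS. Of 20 members, 10 were called higher and 0 lower, against 26.1% higher and 23.4% lower among all genes tested. In all, 10 members had an unadjusted p under 0.05, and the number called lower was 0 with DESeq2 and 2 with limma on TPM. With the fold limit, 6 were higher and 0 lower, against 6.47% and 6.06% of all genes. The median log2 fold change of the members was 0.82, or 0.82 over 18 members with the same floor, against 0.00 for all genes. For 12 members both POS libraries stood above both NEG libraries and for 2, H1-5 and H3C12, below, and 73.2% of all genes tested had no overlap in either direction.

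H2AC6, the leading member in this line, measured 126 and 130.1 CPM in NEG and 217 and 250.1 CPM in POS. Its log2 fold change was 0.81 ± 0.076 (adjusted p = 1.03e-07). H1-2 measured 4.71 and 3.52 CPM in NEG and 12.7 and 12.5 CPM in POS, the largest change among called members above the floor (1.57 ± 0.13, adjusted p = 6.29e-08). H2BC12 went from 16.9 and 16.4 CPM to 23.2 and 27.9 CPM (0.55 ± 0.092, adjusted p = 6.86e-05). In each of them the POS libraries lay above the NEG libraries. These POS libraries are the pair that differed with GC content, and with the GC correction 11 members were called higher and 0 lower.

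The other H2B genes, H4C8 and H2AC11 rose from lower levels. H2BC5 measured 1.98 and 1.97 CPM in NEG and 3.02 and 4.36 CPM in POS (0.83 ± 0.17, adjusted p = 0.000445). H2BC11 went from 0.592 and 0.664 CPM to 1.72 and 1.45 CPM (1.28 ± 0.27, adjusted p = 0.000596). H2BC4 went from 0.503 and 0.536 CPM to 1.22 and 1.18 CPM and H4C8 from 1.01 and 0.894 CPM to 1.87 and 2.17 CPM (1.14 ± 0.28 and 1.02 ± 0.23). H2AC11 measured 0.444 and 0.179 CPM in NEG and 0.673 and 0.933 CPM in POS. H2AC11 and H2BC15 were called at 1.32 ± 0.39 and 0.82 ± 0.23, calls lost without NEG replicate 2 and also, for H2AC11, without POS replicate 2 and, for H2BC15, with DESeq2. H1-3 had 0 and 1 counts in NEG and 6 and 16 in POS (adjusted p = 0.0114), and the ratio of POS to NEG per total count was 19.5 (95% interval 3.14 to 803, exact, counting error only). H1-3 reached the filter of 10 counts only through these POS libraries, where it was high. It is counted among the members called higher, but its call adds no support for a change. The H1-3 call was lost without either NEG replicate or without POS replicate 2. H1-4 measured 0.207 and 0.179 CPM in NEG and 0.347 and 0.412 CPM in POS and was not called (0.90 ± 0.45, adjusted p = 0.107). H4C3 had 4 and 4 counts in NEG and 4 and 5 in POS, and H3C12 5 and 5 and 2 and 3, neither called. In MDA-MB-231, H3C12 had 2 and 2 counts in NEG and 2 and 2 in POS.

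The lines differed in direction in the poly(A) libraries. The difference between their changes was called for 10 of 20 members, against 41.2% of all genes tested, and in each of them the change in MDA-MB-231 lay below that in MDA-MB-436. It was -2.48 ± 0.17 for H1-2 (adjusted p = 7.84e-09), -1.62 ± 0.12 for H2BC12 (adjusted p = 1.09e-08), -1.38 ± 0.11 for H2AC6 (adjusted p = 2.20e-08), -2.76 ± 0.35 for H2BC4 and -2.38 ± 0.32 for H4C8. Each of these differences stayed called when any 1 library was left out. Of the 20 members, 9 were called lower in MDA-MB-231 POS, called higher in MDA-MB-436 POS and called for the difference, a combination found in 4.59% of all genes tested. These were H1-2, H2AC6, H2AC11, H2BC4, H2BC5, H2BC11, H2BC12, H2BC15 and H4C8, and they are also the 9 members with a mean of at least 20 counts, a limit chosen after the values were seen.

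Summed over members, the share of protein-coding counts in standard serum was 0.0277% ± 0.000672 in MDA-MB-231 NEG and 0.0155% ± 0.000532 in POS, and 0.0160% ± 7.45e-05 in MDA-MB-436 NEG and 0.0294% ± 0.00288 in POS (SD, n = 2 each). POS was below NEG in the first line and above it in the second without overlap. In low serum it was 0.229% ± 0.00498 and 0.251% ± 0.0101 in MDA-MB-231 NEG and POS, and 0.247% ± 0.0324 and 0.211% ± 0.0165 in MDA-MB-436 NEG and POS (SD, n = 2 each). Summed TPM gave the other order in MDA-MB-231 at low serum, with 6918 ± 44.8 in NEG and 6614 ± 312 in POS (SD, n = 2 each). An exact permutation test of 2 libraries against 2 cannot go below p = 0.333, so no test is given for these sums.

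Linker histone genes differed between the cell lines, which were also grown in different media. The H1 subtypes bind the DNA between nucleosomes, and cells use different mixtures of them. In low serum MDA-MB-231 had H1-2 and H1-4 almost alone: H1-4 held 51.3% ± 0.105 of the summed H1 TPM in NEG and 54.5% ± 0.0481 in POS, and H1-2 held 48.6% ± 0.0986 and 45.4% ± 0.0593 (SD, n = 2 each). In MDA-MB-436, H1-2 held 34.0% ± 0.351 in NEG and 28.3% ± 0.275 in POS, and H1-3 held 12.4% ± 0.460 and 17.7% ± 0.341 (SD, n = 2 each). The summed H1 level there went from 3774 ± 233 TPM in NEG to 2785 ± 0.841 TPM in POS (SD, n = 2 each). H1-3 itself measured 469 ± 11.6 and 493 ± 9.36 TPM (SD, n = 2 each), so its larger share goes mainly with the lower sum. H1-5 held 26.7% ± 1.16 and 27.0% ± 0.401, and H1-4 held 26.2% ± 0.310 and 26.3% ± 0.192 (SD, n = 2 each), in each case a difference within the spread of the replicates.

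A group of 4 members was near the detection limit in MDA-MB-231 and present in MDA-MB-436. H1-5 had 3 to 8 counts in the MDA-MB-231 low serum libraries and 6303 to 8431 counts in those of MDA-MB-436. H1-3 had 2 to 5 counts against 3646 to 5084, and H3C4 had 2 to 4 counts against 2508 to 3788. H1-1, a weakly expressed linker gene, had 1 to 6 counts against 145 to 177. The libraries of the lines did not overlap for any of these genes. Among all genes tested in low serum, the level was called lower in MDA-MB-231 for 42.7%. The difference in level between the lines, a comparison added after the values were seen, was called for each of them, with adjusted p of 1.89e-07 for H1-5, 2.64e-21 for H1-3, 7.93e-15 for H3C4 and 4.16e-24 for H1-1. In standard serum these 4 genes had 0 counts in all 4 MDA-MB-231 libraries, which allows up to 0.0943 CPM per library (3 counts, counting error only), and 7 to 11 (H3C4), 0 to 16 (H1-3), 1 to 6 (H1-5) and 0 to 1 (H1-1) counts in those of MDA-MB-436. H1-6, the testis subtype, had 4 to 16 counts in the low serum libraries of both lines.

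**Figure D3:**
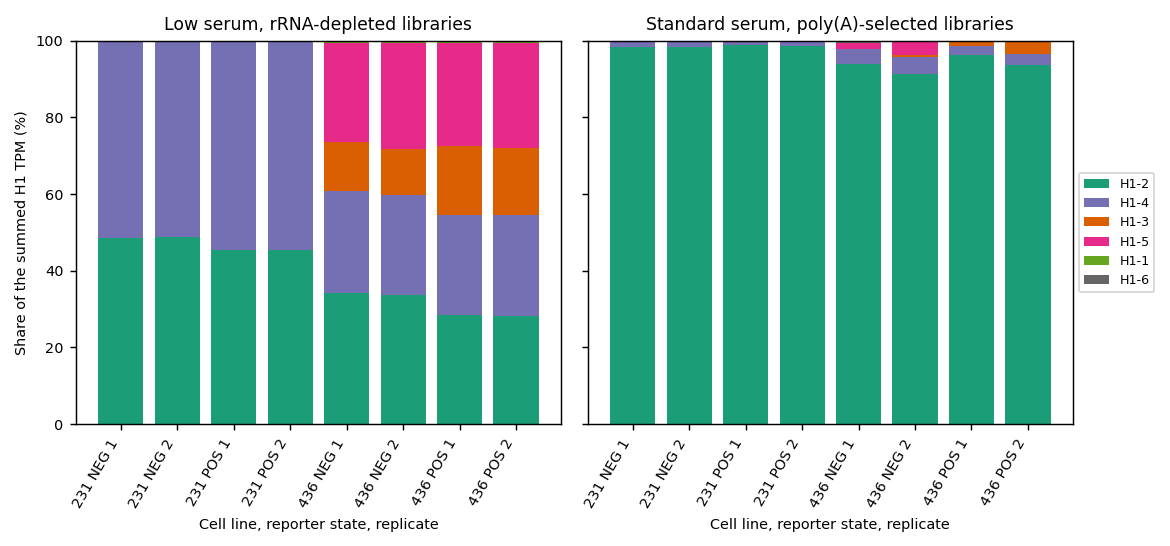
Share of the summed H1 TPM (percent) held by each linker histone gene in every library, as stacked bars, for low serum (left) and standard serum (right), labelled by cell line, reporter state and replicate. H1-2 and H1-4 fill the MDA-MB-231 bars in low serum, H1-3 and H1-5 appear in the MDA-MB-436 bars, and H1-2 takes most of each standard serum bar.

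The level between the lines was called lower in MDA-MB-231 for 10 and higher for 8 of 21 members in low serum, against 42.7% lower and 40.7% higher among all genes tested. H3C12 and H2BC13 were lower in MDA-MB-231 (log2 difference -1.21 ± 0.13 and -1.11 ± 0.11), and H1-4 and HIST1H4B were higher (1.26 ± 0.055 and 1.08 ± 0.045). In standard serum 9 of 20 were higher and 3 lower in MDA-MB-231, against 40.0% and 44.6%. Of those called lower, H3C4 and H1-5 had 0 counts in every MDA-MB-231 library and passed the count filter only through MDA-MB-436. H1-6, called higher, had 3 counts or fewer in every library, so these calls rest on few reads. H2BC5 was higher in MDA-MB-231 by 3.85 ± 0.097, H1-2 by 2.85 ± 0.086 and H2BC12 by 2.21 ± 0.064 on the log2 scale, and H2AC6 was lower (-2.30 ± 0.058). H2A genes held 70.7% ± 1.64 of the summed member TPM in MDA-MB-436 NEG and 7.48% ± 0.0486 in MDA-MB-231 NEG, and H2B genes held 22.1% ± 0.215 and 63.8% ± 0.223 (SD, n = 2 each).

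In 3 places a measured H2B and a measured H2A gene start back to back, an arrangement common for these classes. The stretches between their starts are shown because the members of a pair did not always get the same call. They are from RefSeq (GRCh38.p14), printed on the plus strand from the H2B start to the H2A start, and capitals mark 4 motifs searched on both strands: ATTTGCAT (the octamer), TATAAA (the TATA box), CCAAT (the CCAAT box) and AAACACA (the H1 box). Each strand was counted, so that TTTATAAA holds TATAAA on both.
H2BC4 and H2AC6: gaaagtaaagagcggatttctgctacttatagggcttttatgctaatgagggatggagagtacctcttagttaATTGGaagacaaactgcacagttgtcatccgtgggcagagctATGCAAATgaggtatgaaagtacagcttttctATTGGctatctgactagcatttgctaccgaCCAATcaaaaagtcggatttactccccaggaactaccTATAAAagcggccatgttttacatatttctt
H2BC11 and H2AC11: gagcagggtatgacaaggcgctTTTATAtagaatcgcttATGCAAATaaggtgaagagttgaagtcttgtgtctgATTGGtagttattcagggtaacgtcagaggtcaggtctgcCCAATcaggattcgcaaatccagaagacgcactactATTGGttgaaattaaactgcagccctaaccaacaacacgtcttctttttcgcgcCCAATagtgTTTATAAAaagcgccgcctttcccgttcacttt
H2BC13 and H2AC13: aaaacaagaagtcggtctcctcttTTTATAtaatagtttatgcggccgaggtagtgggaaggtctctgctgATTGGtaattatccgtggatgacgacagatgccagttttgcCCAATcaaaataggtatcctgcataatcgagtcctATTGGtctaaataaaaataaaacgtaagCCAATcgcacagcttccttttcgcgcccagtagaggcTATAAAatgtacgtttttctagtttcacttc

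These stretches are chr6:26123927-26124171 (245 bases), chr6:27132796-27133042 (247 bases) and chr6:27807930-27808172 (243 bases). The number of octamers was 1, 1 and 0, that of CCAAT 3, 4 and 4, and that of TATAAA 1, 3 and 2. AAACACA was in none of them. Within the 250 bases before the start, the octamer occurred in 1.63% of 35116 RefSeq promoters, TATAAA in 10.7%, CCAAT in 32.01% and AAACACA in 4.82%. Of the 22 members, 20 were matched to a promoter, with the octamer in 7, TATAAA in 13, CCAAT in 17 and AAACACA in 6, all of them H1 genes. A match describes the sequence and is not a bound site.

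H2BC4 and H2AC6 received opposite calls in MDA-MB-436 at low serum, with log2 fold changes of -0.55 and 0.39 on counts, and the H2AC6 call was lost with limma on TPM. In MDA-MB-231 neither was called (0.01 and -0.10), and in standard serum both were called lower in MDA-MB-231 POS and higher in MDA-MB-436 POS. H2BC13 and H2AC13 were both called higher in MDA-MB-231 POS at low serum (0.77 and 0.55), and neither in MDA-MB-436 (-0.31 and -0.02). H2BC11 was called lower in MDA-MB-436 POS at low serum (-0.85 ± 0.17), and H2AC11 was not called (-0.38 ± 0.20). The difference between the members of a pair was not tested.

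Other histone genes were described by lists. Of the replication-dependent histone genes outside this cluster, 10 were tested in low serum, with 4 higher and 0 lower in MDA-MB-231 POS and 0 higher and 4 lower in MDA-MB-436 POS. The H2B gene H2BC18 went from 104 ± 1.33 to 163 ± 8.48 CPM in MDA-MB-231 (log2 fold change 0.65, adjusted p = 1.80e-09) and from 507 ± 36.3 to 334 ± 11.03 CPM in MDA-MB-436 (-0.62, adjusted p = 1.06e-09; SD, n = 2 each). In standard serum 6 were tested, with edgeR calls for 0 higher and 0 lower in MDA-MB-231 (0 at an unadjusted p under 0.05) and for 1 in MDA-MB-436, H2BC21, from 4.75 ± 0.187 to 13.1 ± 0.159 CPM (1.41, adjusted p = 1.39e-07; SD, n = 2 each).

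Most replication-independent variants are made outside S phase as well and are polyadenylated, while the H2AX gene also gives a stem-loop mRNA of the replication-dependent kind. Of 12 variant genes tested, 7 higher and 1 lower were called in MDA-MB-231 POS at low serum and 2 higher and 1 lower at standard serum, with list medians of 0.20 and 0.30. In MDA-MB-436 POS the calls were 4 higher and 7 lower at low serum and 2 higher and 1 lower at standard serum, with medians of -0.23 and 0.16. At low serum H2AX, the variant that is phosphorylated around DNA breaks, went from 95.7 ± 1.15 to 149 ± 0.531 CPM in MDA-MB-231 and from 99.2 ± 10.9 to 75.2 ± 0.652 CPM in MDA-MB-436 (SD, n = 2 each). CENPA, the H3 variant of centromeres, went from 19.4 ± 0.713 to 24.3 ± 0.00237 CPM in MDA-MB-231 and from 26.2 ± 1.30 to 18.7 ± 0.120 CPM in MDA-MB-436 at low serum (SD, n = 2 each). Both genes were called higher in MDA-MB-231 POS and lower in MDA-MB-436 POS at low serum, and neither was called at standard serum.

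Cell cycle genes differed between the groups too. Among all genes tested, 16.2% to 26.6% were called per direction and comparison. Of 49 DNA replication and S phase genes tested, 26 higher and 5 lower were called in MDA-MB-231 POS at low serum and 5 higher and 20 lower at standard serum, with list medians of 0.19 and -0.09. In MDA-MB-436 the calls were 8 higher and 18 lower at low serum and 17 higher and 6 lower at standard serum, with medians of -0.09 and 0.07. The replication helicase gene MCM3 went from 132 ± 3.42 to 66.4 ± 2.18 CPM in MDA-MB-231 at standard serum (-1.04, SD, n = 2 each). MCM7 went from 183 ± 3.86 to 481 ± 8.86 CPM in MDA-MB-436 (1.33, SD, n = 2 each). Both changes were far larger than the list medians. Of 22 G2/M and mitosis genes tested, 12 higher and 3 lower were called in MDA-MB-231 POS at low serum and 9 higher and 2 lower at standard serum, with list medians of 0.18 and 0.21. In MDA-MB-436 POS the calls were 0 higher and 20 lower at low serum and 1 higher and 7 lower at standard serum, with medians of -0.45 and -0.14. The part of the cell cycle in the histone values was not tested.

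Genes that make, process, degrade or carry histones or their mRNAs were mostly called in both directions. The exception was the transcription and 3′ processing list in MDA-MB-231 at low serum, with higher calls only. Among all genes tested, 16.2% to 26.6% were called per direction and comparison. Of 20 histone transcription and 3′ processing genes tested, 5 higher and 0 lower were called in MDA-MB-231 POS at low serum and 2 higher and 4 lower at standard serum, with list medians of 0.00 and -0.08. Those in MDA-MB-436 were 6 higher and 7 lower at low serum and 6 higher and 3 lower at standard serum, with medians of -0.07 and 0.03. SLBP, the stem-loop binding protein gene, was lower in MDA-MB-436 POS at low serum (137 ± 2.16 to 113 ± 0.465 CPM, -0.30) and in MDA-MB-231 POS at standard serum (60.01 ± 1.73 to 51.3 ± 1.08 CPM, -0.28; SD, n = 2 each). CSTF2, a cleavage stimulation factor gene, was higher in MDA-MB-231 POS at both (0.66 and 0.86). Of 9 histone mRNA decay genes tested, 1 higher and 3 lower were called in MDA-MB-231 POS at low serum and 1 higher and 2 lower at standard serum, with list medians of -0.09 and 0.07. In MDA-MB-436 the calls were 3 higher and 2 lower at low serum and 3 higher and 2 lower at standard serum, with medians of 0.08 and 0.00. Of 18 histone chaperone genes tested, 6 higher and 4 lower were called in MDA-MB-231 POS at low serum and 4 higher and 4 lower at standard serum, with list medians of 0.10 and -0.07. Those in MDA-MB-436 were 3 higher and 6 lower at low serum and 4 higher and 1 lower at standard serum, with medians of -0.08 and 0.01.

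The non-histone genes that lie among the members were mostly called in both directions. The exception was MDA-MB-231 at low serum, with lower calls only. Over all genes tested, 16.2% to 26.6% were called per direction and comparison. Of 13 (low serum) and 14 (standard serum) neighbours tested, 0 higher and 7 lower were called in MDA-MB-231 POS at low serum and 4 higher and 5 lower at standard serum, with list medians of -0.24 and -0.26. In MDA-MB-436 POS the calls were 3 higher and 4 lower at low serum and 4 higher and 4 lower at standard serum, with medians of 0.01 and -0.15. ZNF391, a zinc finger gene, was lower in MDA-MB-231 POS at standard serum (10.5 ± 0.410 to 6.81 ± 0.457 CPM) and higher in MDA-MB-436 POS (7.17 ± 0.336 to 16.3 ± 1.08 CPM), and HFE, which regulates iron uptake, was higher in the first (15.9 ± 0.203 to 25.7 ± 1.25 CPM) and lower in the second (13.5 ± 0.144 to 9.41 ± 0.384 CPM; SD, n = 2 each). The difference between the members and their neighbours was not tested.

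**Figure D4:**
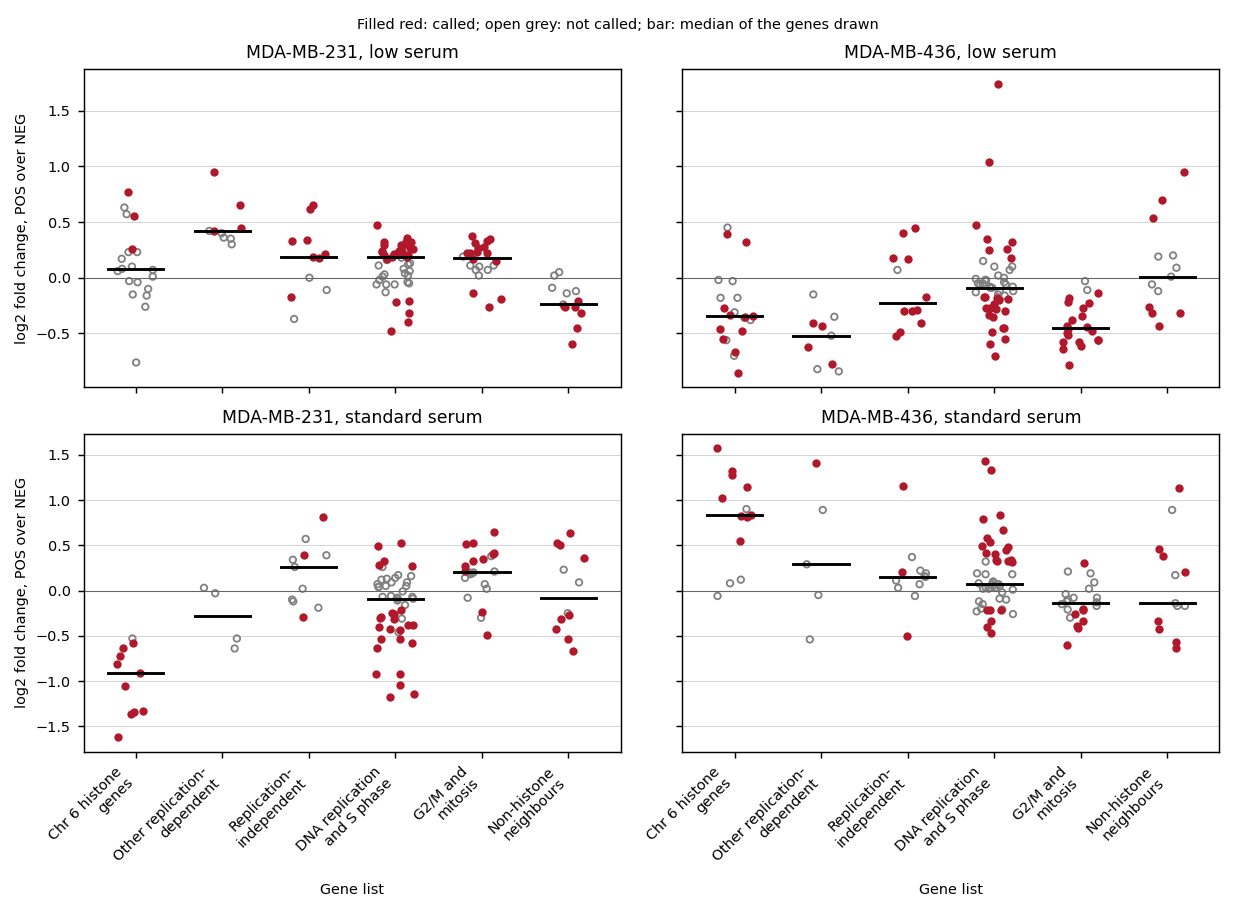
Log2 fold change of POS over NEG for the genes of 6 lists in the 4 comparisons, with 1 point per gene, filled red where the adjusted p was under 0.05 and open grey otherwise, and a bar at the median of the genes drawn. Genes with a group at 3 counts or fewer in each library are left out. The chromosome 6 histone genes drawn lie below 0 in MDA-MB-231 at standard serum, and in MDA-MB-436 all but 1 lie above 0.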

How the data were processed

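RNA-Seq libraries of sorted reporter sublines of 2 breast cancer cell lines were analysed, 8 per serum condition, in 4 groups of 2 replicates. According to the methods and labels, the authors filtered rRNA reads with Bowtie, aligned reads to hg19 with STAR (version 2.6.1a in the labels) and counted reads per Gencode v19 gene. The deposited counts per gene were used as given, and the deposited TPM values of the authors served for levels between genes. How TPM was computed and the strand setting of the counting are not given in the sources used here, so reads of overlapping genes on opposite strands may not be told apart. Of 57820 gene identifiers, 55538 matched the Gencode annotation lifted to GRCh37, which gave symbols, coordinates and coding status. Every column of values per sample was used (0 were not).

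Each serum file was fitted separately with edgeR 4.0.16 (robust quasi-likelihood, TMM, R 4.3.3) over its 8 libraries and 4 groups, on protein-coding genes with at least 10 counts in all. P-values were adjusted over all genes tested by the Benjamini-Hochberg method. CPM scales the deposited counts to each library's total on genes. On simulated counts with 200 changed genes, 99% of 2-fold and 100% of 4-fold changes were called at low serum (15927 genes). At standard serum (15318 genes) 96% and 100% were called. Of the unchanged genes, 18 were called at low serum and 3 at standard serum. The changed genes were drawn only from genes with many counts, and 1 spread was set for all genes. These shares therefore do not cover members with few counts. Alternatives used DESeq2 1.42.0, limma 3.58.1 on log2(TPM + 1), other scalings and filters, a GC offset, replicate blocks and left-out libraries. The floor of 3 counts and the exact 95% intervals cover counting error only. Tables and figures used Python 3.11.15 with pandas 2.3.3, scipy 1.17.1 and matplotlib 3.10.9.

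The members, the gene lists and the tests were chosen with earlier results of these data known, and the comparison of levels between the lines, the limit of 20 counts and the crossed pairing were added after values were seen. Values in every library were given for the 2 members of each class with the highest mean TPM per file, the 5 members with the smallest adjusted p per direction and comparison, and the 5 with the smallest adjusted p for the difference between lines. Of the other lists, at most 6 called genes per list and comparison were named. The values of 1 list gene are not reported here.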

Additional observations from a re-analysis of the deposited data

Results flagged for a closer look

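The POS against NEG change was tested for a difference between the cell lines (edgeR, MDA-MB-231 minus MDA-MB-436, log2 scale). In low serum 10 of 21 members passed, a share near the 45.7% of all genes tested. In standard serum 10 of 20 passed, against 41.2%. In low serum the 5 with the smallest adjusted p were H2AC6 (-0.48), H2BC4 (0.56), HIST1H4B (0.40), H1-4 (0.45) and H1-2 (0.53). In standard serum they were H1-2 (-2.48), H2BC12 (-1.62), H2AC6 (-1.38), H2BC4 (-2.76) and H4C8 (-2.38). H1-2, H2BC4 and H2AC6 are in both sets of 5, H1-2 and H2BC4 with a positive difference in low serum and a negative one in standard serum, and H2AC6 with a negative difference in both. The difference between the serum files was not tested.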

How the results depend on the processing

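In MDA-MB-231 at low serum, the 3 members called higher became 5 without robust shrinkage, 6 with the 4 libraries of the line alone, 0 at the fold limit of 1 on the log2 scale and 0 to 4 with 1 library left out, and the 0 called lower became 4 with limma, 2 with no minimum count, 1 without robust shrinkage, 1 with 4 libraries and 0 to 1 with 1 left out. In MDA-MB-436 at low serum, the 2 called higher became 0 with limma, 1 with 4 libraries, 0 at the fold limit and 1 to 2 with 1 left out, and the 9 called lower became 17, 5, 0 and 7 to 17 in the same order, and 15 without robust shrinkage. The 10 differences between lines became 3 at the fold limit and 5 to 14 with 1 library left out.

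In standard serum, the 12 members called lower in MDA-MB-231 became 7 with DESeq2, 7 at the fold limit and 8 to 12 with 1 library left out. The 10 called higher in MDA-MB-436 became 6 at the fold limit and 7 to 10 with 1 left out, and the 0 called lower became 2 with limma. The 10 differences between lines became 16 with limma and 10 to 11 with 1 left out. The log2 ratio of POS to NEG in the share of protein-coding counts held by the members was 0.13 in MDA-MB-231 at low serum and turned to -0.06 for summed TPM, which divides by gene length. In MDA-MB-436 at low serum it was -0.23, -0.55 for summed TPM and -0.36 to -0.09 with 1 library left out (the lowest without NEG replicate 1, the highest without NEG replicate 2), with -0.15 without POS replicate 2. In MDA-MB-231 at standard serum it was -0.84, -0.89 for summed TPM, -0.72 over members with at most 10% of windows shared and -0.87 to -0.80 with 1 left out, and in MDA-MB-436 0.88 and 0.77 to 0.97 with 1 left out. The cause of these changes was not tested.

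The correlation of same-numbered replicate deviations was -0.148 to 0.0488 in low serum and -0.0231 to 0.229 in standard serum, where 4 of 6 pairs of groups lay above 0.1, among them POS and NEG of both lines. No label ties a number to a shared culture or day and each group has 2 replicates, so the numbers were not taken to pair the libraries. With the replicate block, 3 members were called higher and 0 lower in MDA-MB-231 and 2 and 10 in MDA-MB-436 at low serum, 0 and 10 and 10 and 0 at standard serum, and 11 and 10 differed between lines. With the block crossed in MDA-MB-436 at low serum, an alternative chosen after seeing the data, 6 and 1 were called in MDA-MB-231 and 2 and 14 in MDA-MB-436. Over all alternatives, 2109 of 2297 values of single members kept their direction and their side of the threshold, 76 lost a call, 112 gained one and 0 called values changed sign. In the poly(A) libraries several members have too few counts for a statement on small changes. They include the H3 genes, H1-1, H1-3, H1-5, H1-6, HIST1H4B, H4C3, H4C11, H2BC13 and H2AC13.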
